A study of Mus musculus with 30 samples.

Results

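The 40 genes described here encode proteins that the liver secretes into blood plasma: carrier and protease inhibitor proteins (4 genes), apolipoproteins (5), clotting factors and fibrinogen chains (11), proteins of the contact system, anticoagulation and fibrinolysis (7) and complement proteins (13). They were taken as a fixed list of mouse symbols, each of which matched 1 entry of the count tables, so that all 40 of 40 were found among 48709 genes. RNA sequencing covered 5 tissues of adult mice of the C57BL/6 strain (spleen, muscle, liver, kidney and brain). Each tissue gave 3 libraries from wild-type (WT) and 3 from Ctcf+/- mice, 30 in all. Ctcf+/- mice carry 1 functional copy of Ctcf in every cell, which encodes a DNA-binding protein that shapes chromatin loops. No other allele, agent or treatment is given, and the labels do not say whether libraries of the same number came from the same mouse. P-values therefore measure the spread between these libraries.

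Hepatocytes make most plasma proteins. Albumin carries fatty acids and hormones, the clotting factors circulate as inactive precursors that activate one another until thrombin converts fibrinogen to fibrin, and complement is another cascade of precursors that ends in a pore built into microbial membranes. In hepatocytes many of these genes are under the control of liver-enriched transcription factors such as HNF1 and C/EBP. Because their messages are so abundant in liver, very small amounts of liver RNA can be visible in libraries of other tissues, so a level outside liver was read here beside the level of genes that mark hepatocytes.

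The bases before the transcription start are shown for 5 genes on which the tissue comparisons turn: Alb, Fga and Fgb as genes with high levels in liver, F13b as a gene that was also high in kidney, and C6 as a gene that was also high in spleen. Each is the 150 bases before a RefSeq start (GRCm38.p6), written 5′ to 3′ on the strand of the gene, with capitals for matches to the HNF1 core GTTAAT and to the C/EBP pattern TTGCNNAA on either strand. For Fga, C6 and F13b that start lay 77, 35 and 5 bases downstream of the gene's 5′ end in the count tables. The last bases shown for these genes therefore lie inside the gene as counted.
Alb, chr5:90460720-90460869, plus strand: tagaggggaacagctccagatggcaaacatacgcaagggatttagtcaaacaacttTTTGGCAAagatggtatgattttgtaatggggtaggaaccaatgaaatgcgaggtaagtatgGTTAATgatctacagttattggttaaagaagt
Fga, chr3:83026003-83026152, plus strand: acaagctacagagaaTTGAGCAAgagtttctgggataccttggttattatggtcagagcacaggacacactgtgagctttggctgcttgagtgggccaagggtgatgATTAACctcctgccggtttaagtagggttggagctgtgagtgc
Fgb, chr3:83049864-83050013, minus strand: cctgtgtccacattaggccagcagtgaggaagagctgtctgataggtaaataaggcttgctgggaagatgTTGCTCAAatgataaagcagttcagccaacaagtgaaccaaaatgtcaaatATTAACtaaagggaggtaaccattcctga
F13b, chr1:139501557-139501706, plus strand: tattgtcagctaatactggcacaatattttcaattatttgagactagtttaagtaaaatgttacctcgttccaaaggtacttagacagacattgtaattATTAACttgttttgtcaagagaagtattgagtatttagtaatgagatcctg
C6, chr15:4727060-4727209, plus strand: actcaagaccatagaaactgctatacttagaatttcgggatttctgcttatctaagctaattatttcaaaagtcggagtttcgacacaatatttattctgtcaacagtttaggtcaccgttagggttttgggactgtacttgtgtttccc

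RefSeq windows of 300 bases, 250 before the start and 50 after it, were matched for 32 of the 40 genes. GTTAAT stood on either strand in 9 of these 32 windows (28.1%; Alb, Pzp, Mug1, F2, F13b, Fga, Fgb, C8a and C8b) and in 7.10% of all 32851 windows in the table. TTGCNNAA stood in 11 of 32 windows (34.4%) and in 10.8% of all. TATAAA stood in 4 of 32 (12.5%; Apoa2, Apob, Klkb1 and C3) and in 13.6% of all. The full HNF1 palindrome stood in 0 of the 32 windows and in 3 of all. Alb, Fga and Fgb each held the HNF1 core and the C/EBP pattern, with the core starting 32, 43 and 29 bases before the start, F13b held the core alone at 51 bases, and C6 held neither. A match of letters is a description of these windows and was not tested as a site.

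Total counts per library were 49.8 M to 131.6 M. Ctcf, the targeted gene, was lower in the 3 Ctcf+/- libraries than in the 3 WT libraries of each tissue with no overlap, for example 26.6 ± 0.774 against 16.9 ± 3.17 counts per 1 M counts (CPM; SD, n = 3) in liver. The exact 2-sided permutation p was 0.1 in each tissue, the smallest that 3 against 3 libraries allow. The 16 hepatocyte marker genes summed to 13440 to 17290 CPM in each liver library and to at most 32.0 CPM in any library of another tissue.

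Several libraries stood apart in ways that touch these genes. Kidney Ctcf+/- library 3 held 32.0 CPM of the 16 hepatocyte genes, against 1.67 to 6.94 CPM in the other 5 kidney libraries. Muscle WT library 1 held 1.31 CPM, against 0.158 to 0.436 CPM in the other 5. All 3 WT spleen libraries held 9.61 to 10.9 CPM, and the 3 Ctcf+/- spleen libraries 1.75 to 2.41 CPM. The sum of 6 kidney tubule genes went the other way in spleen, at 0.0961 to 0.394 CPM in WT and 10.7 to 22.2 CPM in Ctcf+/-. In muscle that sum was 9.39, 67.2 and 9.12 CPM in WT and 0, 0.0115 and 5.38 CPM in Ctcf+/-. What put these genes into these libraries was not tested, and results that rest on them are given with those values beside them.

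Plasma protein genes took 19.9 to 22.7% of all counts in the liver libraries, of which Alb alone took 11.8 to 14.1%. The share was 0.0644 to 0.107% in kidney, 0.0109 to 0.0196% in spleen, 0.00402 to 0.00506% in brain and 0.00183 to 0.00471% in muscle. Levels between genes in liver were compared per length, as CPM per kilobase of exon (FPKM). The 40 genes had a median of 278.7 FPKM and spanned 4.50 to 55110 FPKM.

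Among carrier and inhibitor proteins, Alb, which encodes albumin, had 55380, 66590 and 50550 FPKM in the WT livers and 47430, 53610 and 57110 FPKM in the Ctcf+/- livers. Ahsg, which encodes fetuin-A, an inhibitor of mineral deposition, had a mean of 8936 ± 1519 FPKM (SD, n = 6). Pzp and Mug1, protease-trapping proteins of the alpha-2-macroglobulin family, had 696.7 ± 114 and 236.5 ± 56.9 FPKM. Pzp and Mug1 have close sequence relatives in the mouse genome, as has Kng1, so reads that fit several of them were left out and their levels are uncertain. The 5 apolipoproteins, most of which carry lipids in lipoprotein particles, had a median of 2097 FPKM. Apoa2 (13120 ± 1802) and Apoa1 (6939 ± 2097), the proteins of high-density lipoprotein, stood above Apoc3 (2097 ± 307), an inhibitor of lipoprotein lipase. Apob, the scaffold of low-density lipoprotein, had 250.3 ± 19.9 FPKM although its CPM (3488) exceeded that of Apoc3 (2126), since its transcript is far longer.

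Clotting genes covered a wide span in liver. The fibrinogen chains Fgg (1726 ± 374 FPKM), Fga (1562 ± 271) and Fgb (1281 ± 252) had overlapping ranges over the 6 libraries. Prothrombin, F2, followed at 451.9 ± 43.7 FPKM. F12 (258.5 ± 21.9), the starter of the contact pathway, and F10 (214.7 ± 16.7), which cleaves prothrombin, were lower. F13b, the carrier subunit of the fibrin cross-linking factor, F7, which pairs with tissue factor, and F9, the factor missing in haemophilia B, had 76.5 ± 4.05, 71.2 ± 5.73 and 68.8 ± 8.57 FPKM, which overlapped. F5, the cofactor of factor Xa, had 52.2 ± 6.57 FPKM and F11, an activator of F9, 29.1 ± 5.15 FPKM.

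Among the 7 genes of the contact system, anticoagulation and fibrinolysis, plasminogen (Plg), the precursor of the fibrin-cutting enzyme, had 1059 ± 114 FPKM. Kng1, the source of bradykinin, had 772.3 ± 101 FPKM and Serpinf2, the plasmin inhibitor, 475.3 ± 45.1 FPKM. Proc, the precursor of the anticoagulant protein C, Serpinc1, which encodes antithrombin, and Serpind1, heparin cofactor II, had 318.9 ± 32.4, 315.6 ± 21.8 and 279.4 ± 21.3 FPKM. Klkb1, plasma prekallikrein, had 33.7 ± 5.50 FPKM. Complement genes had the lowest median of the 5 roles, 69.1 FPKM. C3, the hub of the cascade, had 1926 ± 161 FPKM, Mbl2, a mannose-binding lectin, 690.7 ± 104 FPKM, and Cfi, the protease that inactivates C3b, 333.1 ± 43.2 FPKM. The lowest levels of all 40 were those of C6 (4.50 ± 0.781), Cfb (6.46 ± 0.711), C2 (7.59 ± 1.05), Masp1 (16.5 ± 4.03) and F11.

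**Figure D1:**
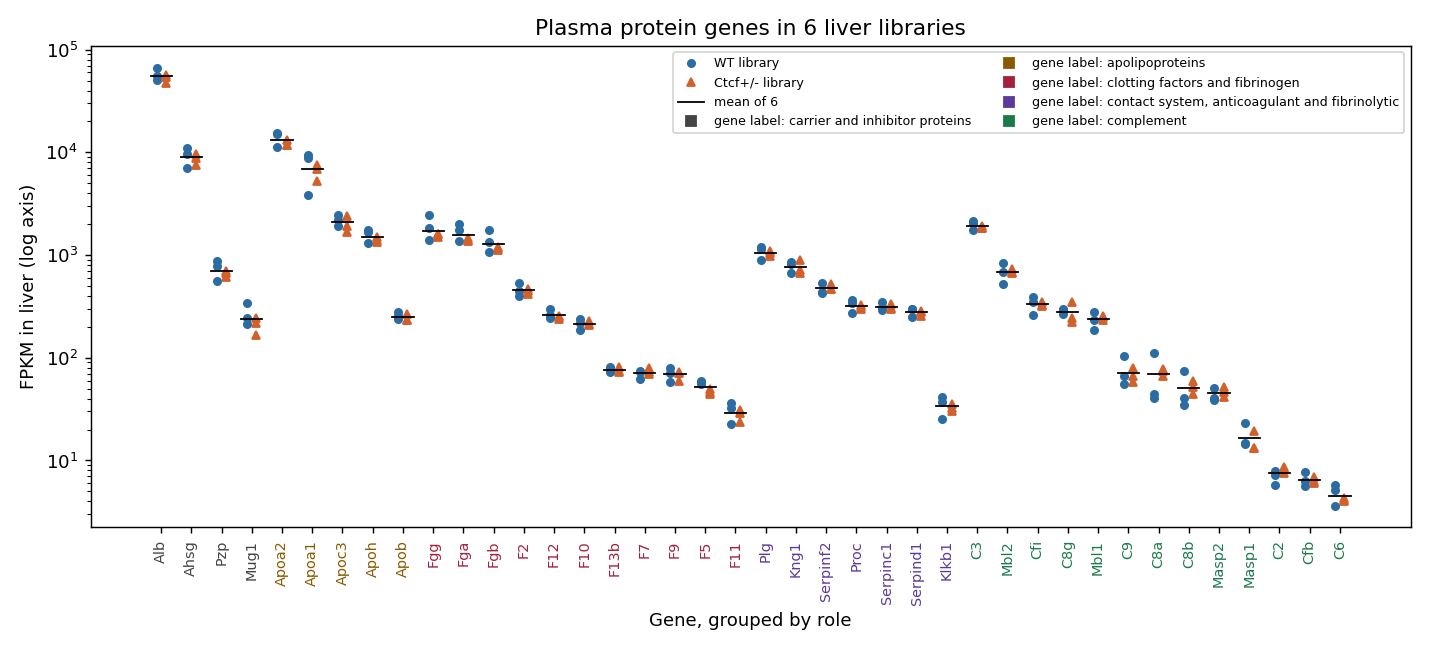
Level of each of the 40 genes in liver on a log axis (FPKM), grouped by role, with 3 WT libraries (circles), 3 Ctcf+/- libraries (triangles) and the mean of all 6 (bar). Alb stands at 55110 FPKM and C6 at 4.50 FPKM, and circles and triangles lie on each other for most genes; in C8a 1 WT library stands at 111 FPKM above the other 5.

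Fragments that overlap exons of several genes had been left out of the counts. Of Cfb's exon bases 79.5% are shared with the gene model Gm20547, of Masp2's 54.9% with Tardbp, of C2's 46.9% with Gm20547 and Zbtb12, of Klkb1's 43.2% with Gm45753 and of Serpinc1's 34.4% with Zbtb37. Levels of these 5 genes are understated per length. Over the bases that they do not share, Cfb had 31.5 ± 3.47 FPKM, Masp2 99.8 ± 12.6, C2 14.3 ± 1.98, Klkb1 59.3 ± 9.68 and Serpinc1 481.3 ± 33.2 FPKM, where all exon bases gave 6.46, 44.95, 7.59, 33.7 and 315.6 FPKM. On that scale Serpinc1 stood above Proc and close to Serpinf2. The median of the 40 stayed at 278.7 FPKM. This scale was added after seeing the data.

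The coefficient of variation over the 6 liver libraries had a median of 13.01% among the 40 genes, against 16.7% over all genes tested in liver. F13b had 5.30% and Serpinc1 6.90%, while C8a had 37.3%, Apoa1 30.2% and C8b 28.3%. C8a and C8b encode chains of the same membrane-attack component and lie near each other on chromosome 4. C8a had 111, 44.0 and 40.5 FPKM in WT and 74.0, 78.3 and 66.5 FPKM in Ctcf+/-. C8b had 74.4, 35.1 and 40.4 FPKM in WT and 44.1, 51.4 and 59.5 FPKM in Ctcf+/-. WT library 1 was the top library in both, and also in C9 (105 FPKM against 56.1 to 79.1 in the other 5) and in the 3 fibrinogen chains (Fgg 2434 FPKM against 1399 to 1823). Apoa1 was low in WT library 3 alone, at 3876 FPKM against 5213 to 9329 FPKM in the other 5.

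The genotype comparison in liver asked whether 1 copy of Ctcf changes the output of plasma protein genes where they are made. None of the 40 genes, all tested, passed an adjusted p of 0.05 in edgeR's quasi-likelihood test, where 0.0193% of all 15584 genes tested did. At an unadjusted p under 0.05 there was 1, F5, and DESeq2 and limma-voom also called 0. The median log2 fold change, Ctcf+/- over WT, was -0.07 among the 40 genes and -0.01 over all genes tested.

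F5 had 417, 443 and 430 CPM in WT livers and 368, 328 and 341 CPM in Ctcf+/- livers. The groups did not overlap, which 8.97% of all genes tested share, and F5 was the 1 gene of the 40 for which this held. Its log2 fold change was -0.32 (SE 0.12) with an adjusted p of 0.9999 in edgeR. The fibrinogen chains had log2 fold changes of -0.29 (Fga, SE 0.18), -0.26 (Fgb, SE 0.19) and -0.27 (Fgg, SE 0.21), and Mug1 -0.33 (SE 0.22). C2 had the highest value, 0.24 (SE 0.14), and Alb had -0.13 (SE 0.18). The SEs were 0.12 to 0.36. In bulk RNA, fewer cells of a type and less RNA per cell cannot be told apart.

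**Figure D2:**
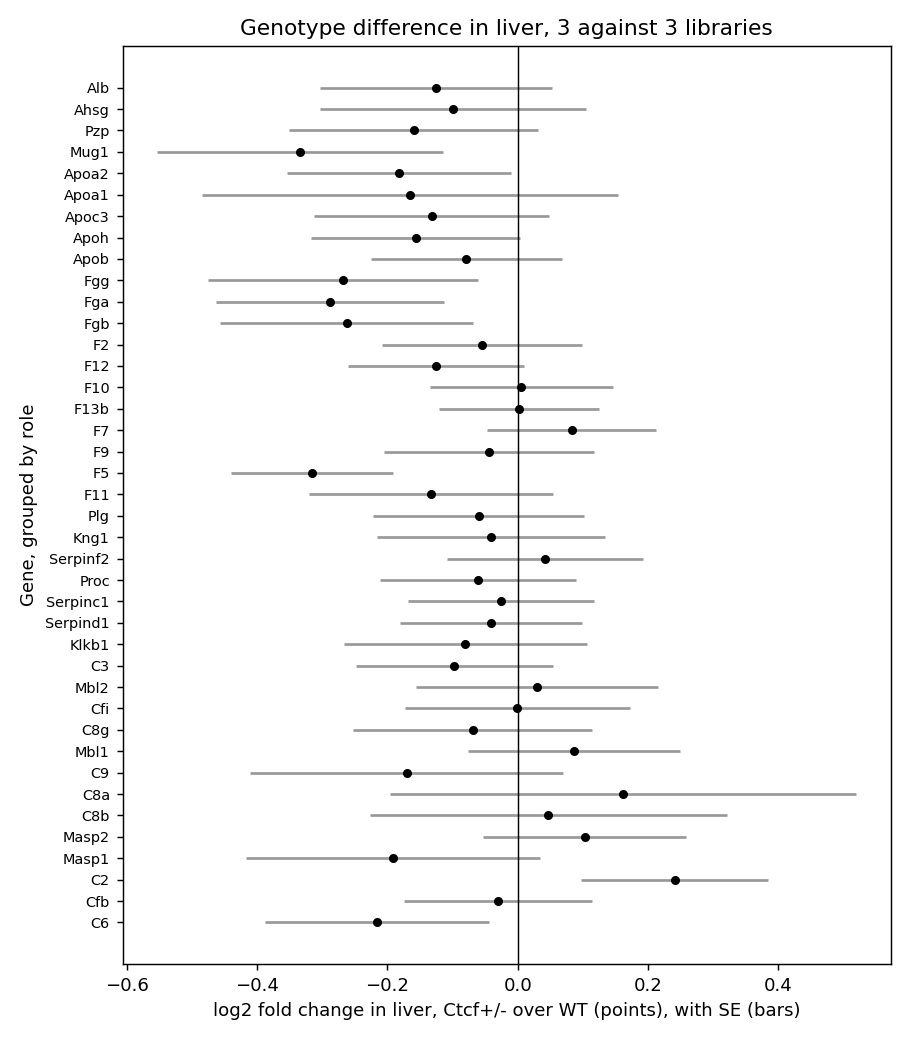
Log2 fold change in liver, Ctcf+/- over WT, for each of the 40 genes (points) with its SE (bars). The points lie between -0.33 and 0.24, and 0 genes passed an adjusted p of 0.05 in edgeR.

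Across tissues, 38 of the 40 genes had their highest mean level in liver. The exceptions were Cfb, with 22.2 CPM in kidney against 18.2 CPM in liver, and C6, with 19.4 CPM in spleen against 18.2 CPM in liver. The median ratio of the liver level to that of the next tissue was 216.3. The ratio was at least 10 for 33 genes, at least 100 for 26 and at least 1000 for 12. The next tissue was kidney for 31 genes, spleen for 7 and brain for 2. Many of these kidney means rest on Ctcf+/- library 3, and kidney without it, with muscle without WT library 1, was added after seeing the data. On those means the next tissue was kidney for 23 genes, spleen for 14 and brain for 3, having changed for Ahsg, Pzp, Plg, Serpinc1, F7, F11, C8b and C9. The ratio moved by over 1.5 times for 10 genes, for example from 2443 to 6527 for Alb. It was at least 1000 for 15 genes, at least 100 for 26 and at least 10 for 33, with a median of 216.7.

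To set levels outside liver beside those of hepatocyte genes, each gene's level as a share of its liver level was divided by the same share pooled over 16 hepatocyte genes (enzymes and transporters such as Cyp2c29, Cyp3a11, Slc10a1 and Cps1) in the same library. This ratio, called the excess over the hepatocyte trace, is 1 where a gene is present in proportion to liver. A gene was counted as above the trace where the excess was at least 10, with at least 10 counts, in each of the 6 libraries of a tissue. By that rule 13 of the 40 genes were above the trace in at least 1 tissue: 5 in brain, 9 in kidney, 4 in muscle and 4 in spleen. C2 was above it in all 4. The share of all genes that pass this rule is not given here, so these counts are a description. None of the 4 carrier and inhibitor genes was above the trace in any tissue, 1 of 5 apolipoproteins was, 2 of 11 clotting genes, 3 of 7 genes of the contact, anticoagulant and fibrinolytic group and 7 of 13 complement genes. Because the excess divides by the liver level, a gene with a high level in liver needs more CPM elsewhere to pass. Complement genes had the lowest median in liver, and differences between roles in these counts were not tested. Among 57 other plasma protein genes, which include many known to be made outside liver, 32 were above the trace in brain, 32 in kidney, 29 in muscle and 18 in spleen.

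**Figure D3:**
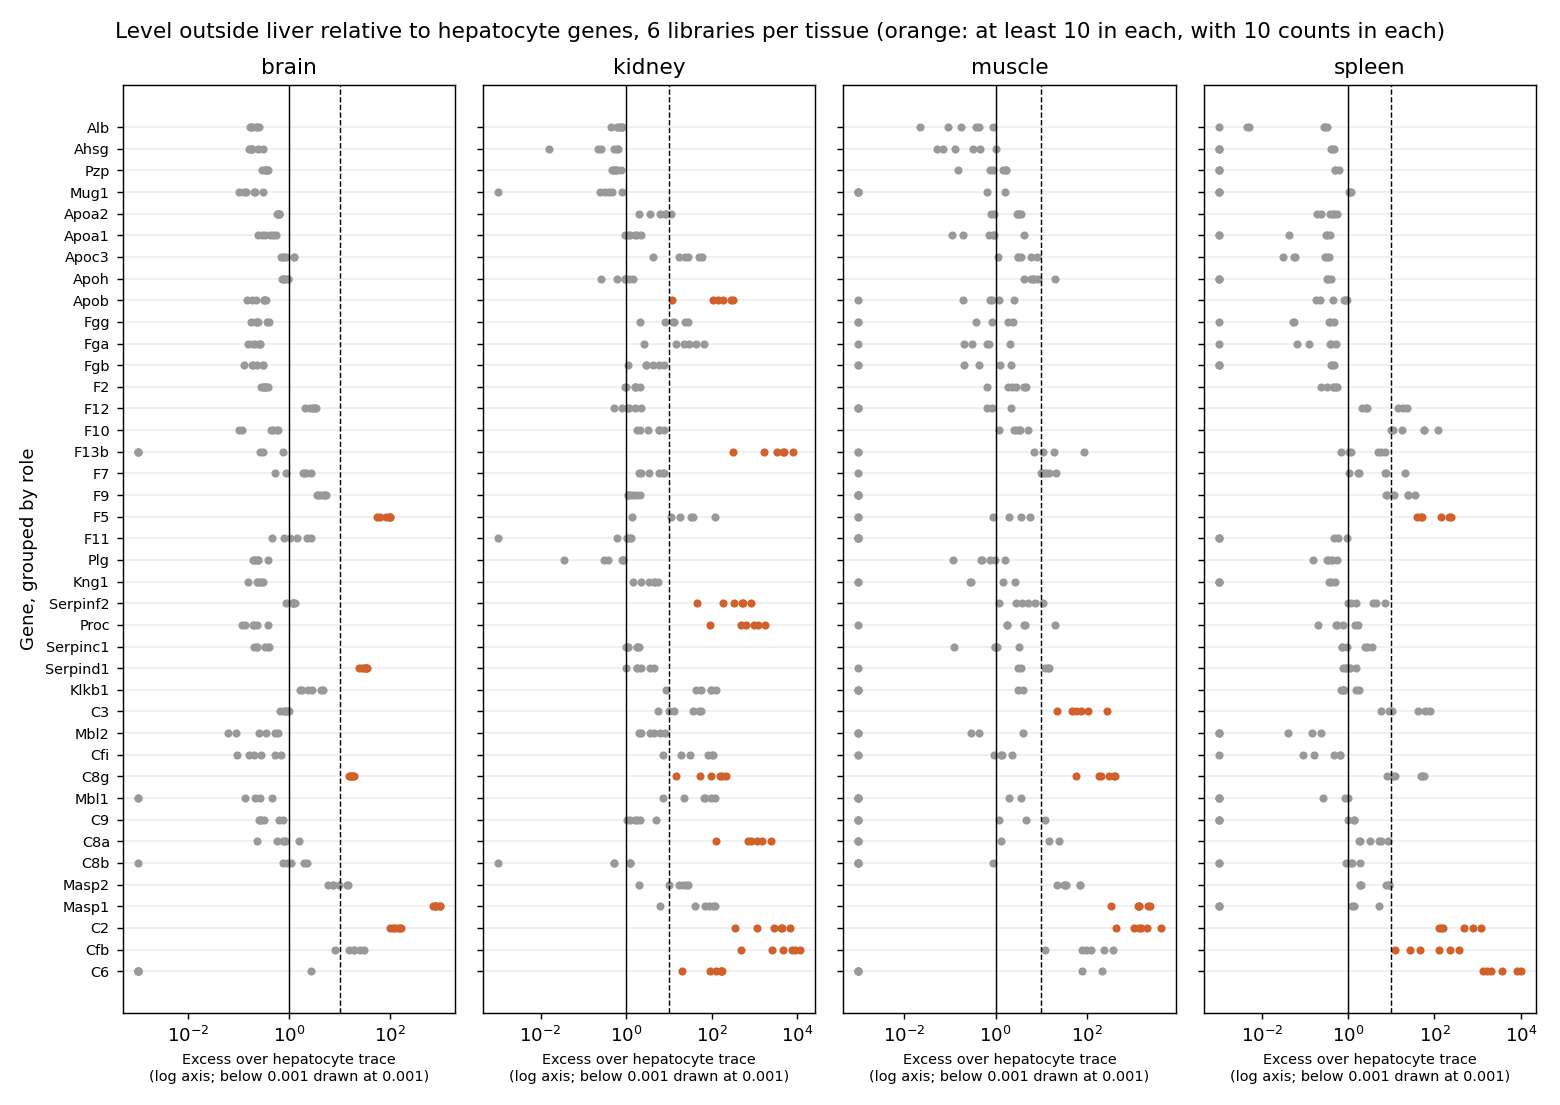
Excess over the hepatocyte trace (log axis) for each gene in the 6 libraries of brain, kidney, muscle and spleen; 1 (solid line) is a level in proportion to liver, the dashed line is 10, and orange marks genes at or above 10 with at least 10 counts in each library. Kidney holds 9 orange genes, brain 5, muscle 4 and spleen 4; Alb and Ahsg lie near or below 1 in all 4 tissues.

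In kidney the pooled hepatocyte genes stood at 0.0110 to 0.0460% of their liver level in 5 libraries and at 0.212% in Ctcf+/- library 3. Alb followed them, with 41.3, 10.2 and 26.7 CPM in WT and 8.79, 11.9 and 218 CPM in Ctcf+/-. Its excess was 0.433 to 0.796. Ahsg had 3.71, 0.0225 and 1.82 CPM in WT and 0.443, 0.527 and 18.5 CPM in Ctcf+/-, and was again high in the same library. Plg, Apoh and Mug1 were also highest in Ctcf+/- library 3.

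The rule asks for an excess of at least 10 in that library too, so it selects genes whose level there is well above the trace. F13b had 154, 174 and 173 CPM in WT kidneys and 152, 140 and 130 CPM in Ctcf+/- kidneys, which is 79.4% of its liver level, with an excess of 315 to 8146. Serpinf2 had 96.4, 104 and 98.1 CPM in WT and 96.8, 87.7 and 107 CPM in Ctcf+/-, or 8.90% of its liver level. Proc had 113, 101 and 86.1 CPM in WT and 97.8, 74.2 and 98.4 CPM in Ctcf+/-, or 19.0%. All 3 had library 3 of the Ctcf+/- group within or close to the range of the others, and for Serpinf2 it was the highest.

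Apob had 173, 125 and 129 CPM in WT kidneys and 158, 97.7 and 89.0 CPM in Ctcf+/- kidneys, or 3.69% of its liver level. C8a had 81.0, 68.5 and 56.1 CPM in WT and 60.8, 44.7 and 68.6 CPM in Ctcf+/-, or 25.2%. Its partner C8b had 0 to 0.0407 CPM in 5 kidney libraries and 0.344 CPM in Ctcf+/- library 3, so the 2 neighbouring genes parted in kidney, and C9, which completes the same pore, had 0.0509 to 0.105 CPM in those 5 and 0.637 CPM in Ctcf+/- library 3.

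Cfb, the protease of the alternative complement pathway, had 21.5, 23.9 and 22.5 CPM in WT kidneys and 25.5, 21.0 and 18.5 CPM in Ctcf+/- kidneys. C2, its counterpart in the classical pathway, had 15.4, 22.2 and 21.7 CPM in WT and 19.5, 19.5 and 21.8 CPM in Ctcf+/-. C8g, the third chain of C8, had 9.90 to 12.8 CPM and C6, a pore component, 0.327 to 0.769 CPM. Without Ctcf+/- library 3, 17 genes were above the trace, adding Apoc3, C3, Cfi, F5, Fga, Klkb1, Masp1 and Mbl1. Fga had 32.2, 34.8 and 27.6 CPM in WT and 32.7, 21.0 and 26.1 CPM in Ctcf+/-, with no rise in library 3. Fgb had 6.50, 3.24 and 3.74 CPM in WT and 5.75, 3.08 and 11.7 CPM in Ctcf+/-, so the chains, whose liver ranges overlapped per length, parted in kidney, where Fga was at 0.618% of its liver level. Fgb and Fgg had 3.08 to 11.7 and 6.84 to 16.6 CPM.

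**Figure D4:**
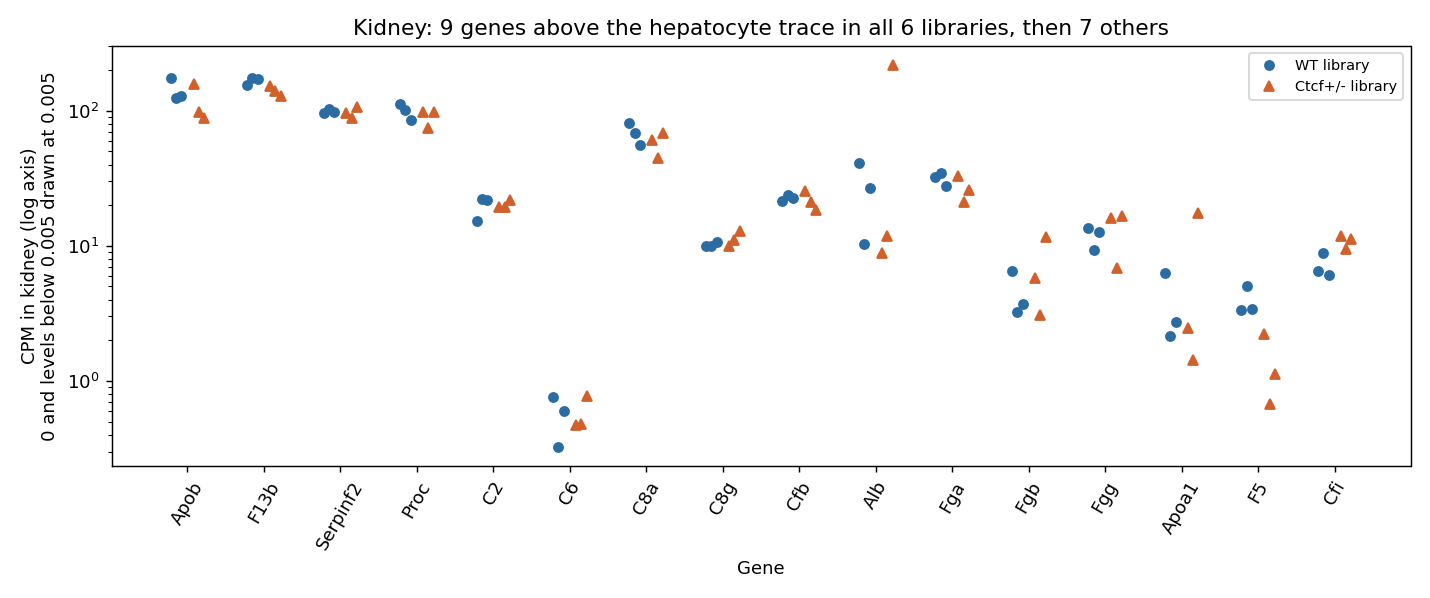
CPM in 3 WT (circles) and 3 Ctcf+/- (triangles) kidney libraries on a log axis, for 9 genes above the hepatocyte trace and 7 others. F13b lies at 130 to 174 CPM in all 6 libraries, while Alb lies at 8.79 to 41.3 CPM in 5 and at 218 CPM in Ctcf+/- library 3.

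A test over the 24 libraries outside liver compared each tissue with the mean of the other 3 by edgeR's quasi-likelihood test, on 38 of the 40 genes. That mean is taken over log2 levels, so a gene can be higher by this test and still be lower than in a single one of those tissues. F11 and C8b did not pass the filter on low counts in these 24 libraries. In kidney 34 of 38 were higher, where 38% of all genes tested were. The highest log2 differences were those of F13b (11.39, SE 0.24, adjusted p 2.1e-20), Proc (10.48, SE 0.20), C8a (9.99, SE 0.22), Apob (8.99, SE 0.21) and Serpinf2 (7.99, SE 0.12). Alb, Ahsg, Plg and Mug1 were among the 34 as well, and all 4 moved with the hepatocyte genes in kidney Ctcf+/- library 3. Without that library 30 genes were higher in kidney.

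In brain the pooled hepatocyte genes stood at 0.0262 to 0.0298% of their liver level in every library, and Alb at 0.00440 to 0.00737%. Most of that pool came from Tdo2 (1.41 CPM in WT and 1.59 in Ctcf+/-), Uox (0.990 and 0.845) and Cps1 (0.612 and 0.540). The excess in brain therefore rests on few of the reference genes. In that tissue 5 genes were above the trace. Masp1, a protease that acts with mannose-binding lectins, had 8.85, 9.65 and 10.7 CPM in WT brains and 10.4, 11.2 and 11.96 CPM in Ctcf+/- brains, or 23.1% of its liver level. F5 had 10.3, 10.3 and 6.24 CPM in WT and 9.12, 6.23 and 10.6 CPM in Ctcf+/-. Serpind1 had 5.20, 5.87 and 4.46 CPM in WT and 5.88, 4.97 and 4.76 CPM in Ctcf+/-. These 3 genes were also higher in brain than the mean of the other 3 non-liver tissues on the log2 scale. The differences were 4.98 (Masp1, SE 0.18), 3.10 (F5, SE 0.24) and 4.24 (Serpind1, SE 0.28), each with an adjusted p under 0.05 in edgeR. F9 was the fourth of 4 such genes, at 0.191 to 0.292 CPM in brain, where 41.7% of all genes tested were higher. Both F5 and F9 were lower in brain than in spleen, with means of 8.78 against 11.6 CPM and 0.237 against 0.962 CPM. In muscle their means were 0.0219 and 0 CPM, which lowers the mean of logs. C8g (1.75 to 2.27 CPM) and C2 (0.804 to 1.30 CPM) were the other 2 above the trace, and 14 of the 40 genes did not pass the filter on low counts in brain.

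In muscle 5 genes had at least 10 counts in every library, and 4 of them were above the trace. The pooled hepatocyte genes had 136 counts in WT library 1 and 16 to 45 in the other 5 libraries. In WT library 3 and Ctcf+/- libraries 1 and 3, 10, 12 and 10 of these reference genes were at 0. The excess in muscle therefore rests on few counts. C3 had 18.5, 13.1 and 10.96 CPM in WT muscles and 27.8, 14.8 and 16.2 CPM in Ctcf+/- muscles. Masp1 had 1.31, 1.74 and 1.60 CPM in WT and 0.996, 1.52 and 0.951 CPM in Ctcf+/-. C8g had 1.70 to 2.54 CPM and C2 0.668 to 1.22 CPM. Against the mean of the other 3 non-liver tissues, taken over log2 levels, 3 of 38 genes were higher in muscle in edgeR, where 31.5% of all genes tested were. They were Masp1 (log2 difference 2.56, SE 0.20), Apoh (1.88, SE 0.62) and C3 (0.74, SE 0.19). None of them was highest in muscle. Masp1 had a mean of 1.35 CPM there against 10.45 CPM in brain, and C3 16.9 against 71.4 CPM in spleen. Apoh had 0.459 CPM against 0.547 CPM in brain and 1.27 CPM in kidney, or 0.597 CPM in kidney without Ctcf+/- library 3. Apoh, a phospholipid-binding protein, had 0.241 to 0.835 CPM in muscle. With libraries scaled by total counts, 1 gene was higher.

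C8g was close to 2 CPM in brain and muscle and to 3 CPM in spleen. Its gene model overlaps that of Fbxw5, although no exon base is shared, and C2 counts come only from exon bases outside Gm20547 and Zbtb12. Whether fragments of neighbouring genes add to these 2 was not tested.

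In spleen 4 genes were above the trace. C6 had 17.6, 23.4 and 20.2 CPM in WT spleens and 23.4, 21.0 and 10.6 CPM in Ctcf+/- spleens, or 106.6% of its liver level, with an excess of 1340 to 10000. F5 had 13.9, 12.8 and 9.80 CPM in WT and 14.5, 9.88 and 8.65 CPM in Ctcf+/-. C2 had 2.71, 3.003 and 2.76 CPM in WT and 3.63, 4.04 and 2.22 CPM in Ctcf+/-. In these 3 genes the groups overlapped. Cfb had 0.160 to 1.10 CPM, and its excess came down to 12.1 in WT library 1. F10 had 7.46, 4 and 3.79 CPM in WT and 5.41, 8.11 and 5.44 CPM in Ctcf+/-, and its lowest excess of 9.84 left it just outside the rule. C3 (38.6 to 122 CPM, lowest excess 5.92) and F9 (0.523 to 1.43 CPM, lowest excess 7.71) were outside it too. Their lowest values lay in the WT libraries, where the hepatocyte genes were higher.

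Against the mean of the other 3 non-liver tissues 7 of 38 genes were higher in spleen in edgeR, where 42.4% of all genes tested were. They were C6 (log2 difference 9.44, SE 0.28), F10 (4.91, SE 0.30), F9 (4.61, SE 0.47), F5 (3.57, SE 0.23), F12 (2.71, SE 0.50), C3 (1.89, SE 0.18) and Serpinc1 (1.61, SE 0.39). Serpinc1 had a mean of 1.28 CPM in spleen and 1.68 CPM in kidney, or 0.886 CPM in kidney without Ctcf+/- library 3. Of the membrane-attack genes, C6 was therefore high in spleen and C8a in kidney, while C9 was at 0.161 CPM or less in every spleen library and C8b at 0.117 CPM or less.

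In spleen 13 plasma protein genes, among them Alb, Ahsg and all 5 apolipoproteins, were lower in all 3 Ctcf+/- libraries than in all 3 WT libraries, and 6 of them had 0 counts in Ctcf+/-. In edgeR's quasi-likelihood test these 13 of the 40 genes passed an adjusted p of 0.05, where 0.242% of all genes tested did. All 13 were lower in Ctcf+/- spleens, where 0.183% of all genes tested were called lower. They were all 4 carrier and inhibitor genes, all 5 apolipoproteins, 3 clotting genes (F2, Fgb and Fgg), Kng1 of the contact system and none of the complement genes. The groups did not overlap in 20 genes, where 6.65% of all genes tested had that pattern. Of the 40 genes 34 had passed the filter on low counts. Of the 13 called, 12 passed it through their WT libraries alone and 1, Apoa2, would have passed on the Ctcf+/- libraries too. A gene that passes through the group where it is high had to differ, so these counts are a description. With 10 counts required in every library 0 of the genes were called; Apoa2 and Apob were still tested, each with an adjusted p of 0.0999 in edgeR. With any 1 of the WT libraries left out 0 of the genes were called, without Ctcf+/- library 1 or library 3 there was 1 (Alb), and without Ctcf+/- library 2 there were 9. Their log2 fold changes stayed below 0 in each of these fits. The share of all genes called in each fit is not given here.

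Alb had 30.5, 23.9 and 24 CPM in WT spleens and 0.0200, 0.0689 and 0.104 CPM in Ctcf+/- spleens. The log2 fold change was -8.65 with an SE of 0.49 (edgeR, adjusted p 0.0111). Ahsg had 4.46, 3.46 and 3.46 CPM in WT and 0 counts in all 3 Ctcf+/- libraries, at least 110.9-fold lower against a floor of 3 counts per library. Pzp had 1.94, 1.43 and 1.43 CPM in WT and 0 counts in Ctcf+/-, at least 46.7-fold lower. Fgb, Mug1, Kng1 and Apoh were likewise at 0 in all 3 Ctcf+/- libraries, at least 41.2-, 29.4-, 20.2- and 16.4-fold lower. In every one of these genes all 3 WT libraries were above all 3 Ctcf+/- libraries.

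Apoa2 had 2.80, 2.16 and 2.12 CPM in WT and 0.260, 0.317 and 0.209 CPM in Ctcf+/- (log2 fold change -3.17, SE 0.29, adjusted p 0.0233 in edgeR). Apob had 2.33, 1.80 and 1.89 CPM in WT and 0.09996, 0.179 and 0.125 CPM in Ctcf+/- (-3.90, SE 0.33, adjusted p 0.0213). Apoa1 summed to 485 counts in WT and 3 in Ctcf+/-, a ratio of levels of 172.7 with a 95% counting interval of 58.8 to 840.4. Apoc3 had 0.554, 0.433 and 0.402 CPM in WT and 0.0200, 0.0138 and 0.0104 CPM in Ctcf+/-. F2 had 0.831, 0.577 and 0.724 CPM against 0.0800, 0.110 and 0.104 CPM, and Fgg 1.25, 0.841 and 0.925 CPM against 0.0300, 0 and 0.0313 CPM.

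These WT levels were small beside liver. Alb in WT spleen was 0.0185 to 0.0236% of its liver level, and the 16 hepatocyte genes were at 0.0636 to 0.0724% in WT and 0.0116 to 0.0160% in Ctcf+/- spleen. All 16 hepatocyte genes were detected in each WT spleen library, and 9 to 11 of the 16 were at 0 in each Ctcf+/- spleen library. For 14 of the 16 the WT libraries lay above the Ctcf+/- libraries with no overlap, while Hal (0.735 against 0.681 CPM) and Slc10a1 (0.531 against 0.448 CPM) overlapped and, with Tdo2 (1.60 against 0.889 CPM), made up most of the Ctcf+/- sum. Of 30 plasma protein genes with at least 10 counts in each WT spleen library, 17 lay within 3-fold of the hepatocyte trace in all 3, 8 lay over it (F5, F9, F10, C2, C3, C6, C8g and Cfb) and 1 under it. None of those 8 was called between genotypes. Of the 13 genes called, Alb lay under the trace at an excess of 0.283 to 0.326, and Ahsg, Pzp, Mug1, Apoa2, Apob, F2, Fgb, Fgg and Kng1 were among the 17. Apoa1, Apoc3 and Apoh lay across the 3-fold limit.

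**Figure D5:**
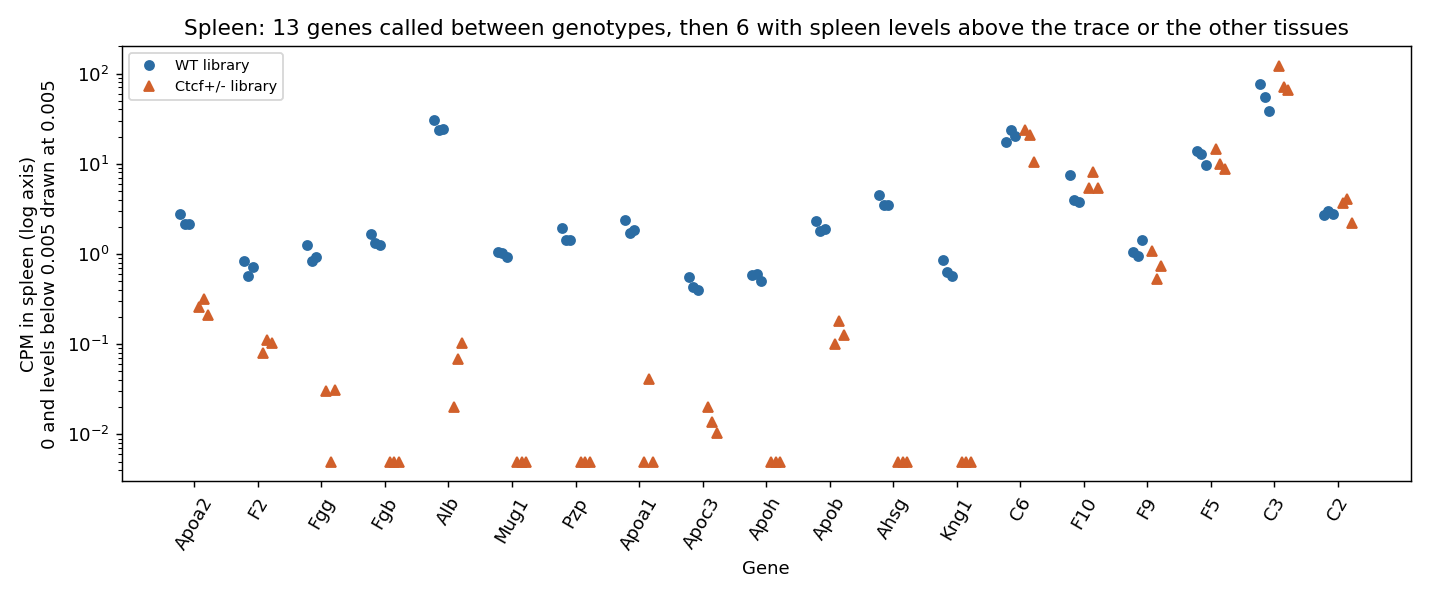
CPM in 3 WT (circles) and 3 Ctcf+/- (triangles) spleen libraries on a log axis; 0 is drawn at 0.005. The 13 called genes have all WT circles above all Ctcf+/- triangles, with Alb at 23.9 to 30.5 CPM against 0.0200 to 0.104 CPM, whereas C6, F10, F9, F5, C3 and C2 overlap.

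What remained of plasma protein genes in Ctcf+/- spleen was set beside kidney, since the kidney tubule genes were higher there, in a comparison added after seeing the data. The 6 tubule genes were at 0.0454, 0.0943 and 0.0930% of their kidney level in the 3 Ctcf+/- spleens. Relative to that, Apob stood at 1.71, 1.48 and 1.05, F13b at 3.15, 0.760 and 1.24 and Proc at 1.39, 1.08 and 1.30, where 1 is a level in proportion to kidney. These values rest on 6 to 22 counts per gene and library. Serpinf2 (8.69 to 15.3) and C8a (2.77 to 11.5) stood higher. The 4 complement genes C2 (120 to 400), C8g (246 to 667), Cfb (18.3 to 109) and C6 (19990 to 90850) were far out of proportion to kidney in the same libraries. In WT spleen, where the tubule genes had 8 to 27 counts per library, Apob stood at 1083 or more, F13b at 56.7 to 134 and Proc at 45.9 to 464. F13b had 10, 7 and 15 counts in WT and 22, 8 and 17 in Ctcf+/-, and Proc 5, 15 and 17 against 6, 7 and 11. The counts of these 2 genes thus overlapped between genotypes, while those of the tubule genes did not. Whether F13b and Proc moved with the tubule genes was not tested.

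Outside spleen edgeR's fits per tissue called no plasma protein gene between genotypes, while DESeq2 called 1 in kidney and the fit of all 30 libraries 3 in muscle. In kidney 0 of 36 genes tested passed in edgeR, where 0.0211% of all genes tested did, and 5 had an unadjusted p under 0.05. F5 had 3.34, 5.05 and 3.38 CPM in WT kidneys and 2.23, 0.671 and 1.13 CPM in Ctcf+/- kidneys (log2 fold change -1.54, SE 0.40, adjusted p 0.447 in edgeR). DESeq2 gave F5 an adjusted p of 0.00194 and called no other plasma protein gene in kidney. The share of all genes that DESeq2 called there is not given here, so this call is a description. Cfi had 6.48, 8.82 and 6.08 CPM in WT and 11.8, 9.48 and 11.2 CPM in Ctcf+/- (0.61, SE 0.17, adjusted p 0.467 in edgeR). F13b, at -0.25 (SE 0.10), was the third of 3 genes without overlap, where 11.4% of all genes tested had none. C3 had a log2 fold change of 0.87 (SE 0.34) and F10 of 1.24 (SE 0.51), and for F10 the top library was Ctcf+/- library 3.

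In muscle 0 of 13 genes tested passed in edgeR, where 0.0249% of all genes tested did, and 3 had an unadjusted p under 0.05. DESeq2 and limma-voom called 0 as well. Serpinf2 had 0.269, 0.339 and 0.121 CPM in WT muscles and 0.0592, 0.0345 and 0.0641 CPM in Ctcf+/- muscles (log2 fold change -2.18, SE 0.53, adjusted p 0.385 in edgeR). F2 had -2.25 (SE 0.70) and Serpind1 -1.81 (SE 0.78), and these were the 3 tested genes without overlap, where 12.2% of all genes tested had none. Alb (-2.75, SE 1.35) and Apoa1 (-3.47, SE 1.51) were high in WT library 1, at 9.66 and 3.12 CPM, and at or under 1.46 and 0.196 CPM in the other 5. Without that library Apoa1 had a log2 fold change of 0.24.

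A fit of all 30 libraries called Serpinf2, F13b and Apob lower in Ctcf+/- muscle. The share of all genes that this fit called in muscle is not given here, so these calls are a description. F13b and Apob had not passed the filter on low counts in muscle alone. Their counts in the Ctcf+/- muscles were 0, 0 and 3 for F13b and 0, 6 and 1 for Apob. F13b had 0.115, 0.465 and 0.0548 CPM in WT muscles and 0, 0 and 0.0321 CPM in Ctcf+/- muscles. The 6 kidney tubule genes were at 0.286% of their kidney level in WT library 2, and relative to that F13b stood at 1.06, Proc at 1.07, C8a at 0.964, Serpinf2 at 1.21 and Apob at 0.685 in that library, on 18 to 48 counts per gene. In the same library C2 stood at 15.2, C8g at 68.8 and Cfb at 0.765, and C6 had 0 counts. In WT library 1, where the tubule genes were lower, F13b stood at 1.88, Proc at 2.02 and C8a at 1.14, but Apob at 7.10 and Serpinf2 at 6.85.

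In brain 0 of 26 genes tested passed in edgeR, where 0.0157% of all genes tested did, and DESeq2 and limma-voom called 0 as well. C3 was the 1 gene with an unadjusted p under 0.05. It had 2.70, 2.64 and 2.48 CPM in WT brains and 2.30, 1.73 and 2.13 CPM in Ctcf+/- brains (log2 fold change -0.35, SE 0.15, adjusted p 1 in edgeR). C3 and F9 were the 2 tested genes without overlap, where 7.83% of all genes tested had none. Masp1 had a log2 fold change of 0.20 (SE 0.10), and Klkb1, F12 and Masp2 had -0.61 (SE 0.46), -0.39 (SE 0.25) and 0.54 (SE 0.32).

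The difference between the genotype effect in spleen and that in liver was tested in the fit of all 30 libraries. This pair of tissues was chosen with earlier results of these data known, in which liver genes differed between genotypes. The calls therefore restate the spleen difference and are a description. Of the 40 genes 9 passed an adjusted p of 0.05 in edgeR, where 0.379% of all genes tested did: Alb, Pzp, Apob, Apoc3, Fga, Fgb, Fgg, Kng1 and Cfi. In each, the log2 fold change was far below 0 in spleen and near 0 in liver, for example -8.65 and -0.13 for Alb. Fga and Cfi did not pass in spleen alone, with adjusted p of 0.0795 and 0.0542, and had 0 to 0.0689 and 0 to 0.0138 CPM in the Ctcf+/- spleens.

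Among the 57 other plasma protein genes, 48 were tested in spleen and 4 were called, where 0.242% of all genes tested were. All 4 were lower in Ctcf+/-. The Ctcf+/- means of Ttr, Rbp4 and Apoa4 lay below the level of 3 counts. They passed the filter on low counts through the WT libraries, where they were high, so these calls are a description too. Ttr, the thyroxine carrier, had 1.74 ± 0.247 CPM in WT and 0.0320 ± 0.0200 CPM in Ctcf+/- (SD, n = 3), and Rbp4, the retinol carrier, 1.12 ± 0.190 against 0.0147 ± 0.00485 CPM. Hpx, which binds haem, had 1.91 ± 0.383 against 0.152 ± 0.0618 CPM, and Apoa4 0.524 ± 0.0718 against 0.0149 ± 0.00553 CPM. In the other 4 tissues 0 of these genes were called in edgeR.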

How the data were processed

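Raw fragment counts per gene, in a table for each tissue, are the deposited values. The authors used featureCounts 1.5.0-p3 without regard to strand, per the file headers. Ensembl release 86 of GRCm38 was the annotation, and fragments that overlapped several genes were left out, per the file headers. STAR is named in the submitters' processing notes, with no version. A second deposited value, the exon length of each gene, scaled FPKM. Libraries were grouped by title, 3 per tissue and genotype. All replicate pairs differed by more than sampling noise (chi-square per degree of freedom 15.4 to 640).

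The 40 genes, their roles and the other lists were chosen with earlier results of these data known. Genes with values in the text are those called between genotypes, the 5 with the smallest p in each tissue, the 5 highest and lowest in liver, those above the hepatocyte trace and those higher in 1 tissue; values of any other gene were chosen after they were seen.

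Counts were fitted per tissue with R 4.3.3 and edgeR 4.0.16 (filterByExpr, TMM, quasi-likelihood F-test, Benjamini-Hochberg adjustment over all genes tested, threshold 0.05). The tissue comparison used the 24 libraries outside liver, and the difference between spleen and liver all 30. Levels are TMM-scaled CPM; scaling was within each tissue, so levels set across tissues depend on it. In spleen the limit that a count of 0 allows, 3 counts, lay at 0.0328 to 0.0385 CPM; it covers counting error only. DESeq2 1.42.0, limma-voom (limma 3.58.1), other scalings, filters and references, a block for the replicate number and fits without each library were tried. Libraries of the same number deviated together in brain (r 0.207, 0.383 and 0.537) and kidney (0.209, 0.190 and 0.212), but not in all pairs of the other tissues. The fits were tested on simulated data. Promoter windows are RefSeq's, matched by symbol. Where a gene has several, the window nearest to its 5′ end in the count tables was used.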

Additional observations from a re-analysis of the deposited data

Results flagged for a closer look

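The genotype effect differed between spleen and liver for 9 plasma protein genes, by a test of the difference in the fit of all 30 libraries (edgeR, adjusted p under 0.05). This pair of tissues was chosen with earlier results of these data known. The log2 effect in spleen minus that in liver was -8.53 for Alb (adjusted p 0.0223), -9.50 for Pzp (0.0229), -3.86 for Apob (0.00213) and -4.66 for Apoc3 (0.0167). It was -4.86 for Fga (0.0223), -9.22 for Fgb (0.0300) and -5.13 for Fgg (0.0156). For Kng1 it was -8.41 (0.0449) and for Cfi -4.97 (0.00243). Pzp, Fgb and Kng1 were at 0 counts in all 3 Ctcf+/- spleens, so their fitted values depend on the prior count and are no bound. The sum of the 16 hepatocyte genes moved with them, at 9.61 to 10.9 CPM in WT spleens and 1.75 to 2.41 CPM in Ctcf+/- spleens, with 14 of the 16 not overlapping between genotypes and Hal and Slc10a1 overlapping, and the 6 kidney tubule genes moved the opposite way. Their part in these differences was not tested.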

How the results depend on the processing

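Over the alternatives, 161 of the main counts and levels stayed within their limits and 20 moved; 359 values of named genes kept their direction and side of the threshold, 83 lost the threshold, 2 gained it and 1 reversed, Apoa1 in muscle without WT replicate 1 (log2 fold change 0.24, and -4.37 to 0.24 over the fits that leave out 1 library). In spleen the 13 genes called became 0 with a filter of 10 counts in every library, which removes genes at 0 in Ctcf+/-, and 0 with the replicate number as a block, where 19 still had an unadjusted p under 0.05. Leaving out 1 library each gave 0 to 9. The block changed no call of a plasma protein gene in the other tissues. DESeq2 called 1 plasma protein gene in kidney, and the fit of all 30 libraries 3 in muscle. limma-voom called 14 differences between spleen and liver in place of 9. Scaling by total counts left 1 gene higher in muscle in place of 3. Counts of genes above the hepatocyte trace depended on the reference and the fold. They became 8 (Alb as reference) or 3 (30-fold) in brain. In kidney they became 17 (highest reference gene), 15 (3-fold) or 17 without Ctcf+/- replicate 3, and stayed at 9 without any other library. In spleen they became 8 with the highest reference gene, with Alb or at 3-fold. The median liver level was 617.1 in TPM. Without kidney Ctcf+/- replicate 3 and muscle WT replicate 1, added after seeing the data, spleen was the tissue next to liver for 14 genes in place of 7. Where moves have no cause in the alternative's own construction, the cause was not tested. Depth limits levels near 3 counts, which concerns most of these genes in muscle.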
